A study of Mus musculus with 68 samples.

Results

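Late prostate tumours of TRAMP mice without osteopontin were compared with late prostate tumours of TRAMP mice that carried the osteopontin gene. The members were 10 of the 68 arrays of the series: 3 arrays of OPN-/-TRAMP +/- tumours (OT2 and OT3 from animals of 27 weeks, OT6 from an animal of 24 weeks) and 7 arrays of TRAMP +/- tumours (T1 from an animal of 25 weeks, T2 to T7 from animals of 24 weeks). They were chosen by genotype and age in the labels, and all 22206 target probe sets of the Clariom S mouse array were examined, 19572 of them with a gene symbol. All 10 animals carried the TRAMP transgene, in which the probasin promoter drives the SV40 T antigens in prostate epithelium. The other transgenic groups of the series served as references: TRAMP +/- at 16 weeks (7 arrays), OPN-/-TRAMP +/- at 16 to 17 weeks (6 arrays), SPARC-/- TRAMP +/- at 24 to 29 weeks (9 arrays) and at 18 to 19 weeks (6 arrays). Mice without the transgene were TRAMP -/- (6 arrays) and OPN-/-TRAMP -/- (3 arrays), both at 24 weeks, and for the level of the transgene also TRAMP -/- at 16 weeks (4 arrays), OPN-/-TRAMP -/- at 16 to 17 weeks (5 arrays) and SPARC-/- TRAMP -/- at 16 to 18 weeks (7 arrays) and 25 to 27 weeks (4 arrays). The series' design text names adenocarcinoma and neuroendocrine tumours, and the label of each array names prostate tumour tissue without saying which. Each array carries its own animal code in the labels, and the strain is not given there. Each array measured a piece of bulk tissue, in which fewer cells of a type and less RNA per cell cannot be told apart.

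Osteopontin, encoded by Spp1, is a secreted phosphoprotein of bone, immune cells and many carcinomas that binds integrins and Cd44 and is cleaved by matrix proteases. In the TRAMP model the T antigens bind and block p53 and the retinoblastoma proteins, and tumours progress from androgen-dependent glandular lesions to poorly differentiated tumours, some of them neuroendocrine. Neuroendocrine prostate tumours are known for synaptic and granule proteins, for loss of androgen-regulated secretory genes and for rapid division. Spp1 had no named probe set on the array, so the OPN-/- label could not be checked on its own transcript.

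Values are the deposited RMA log2 levels, and a difference is the mean of the 3 late OPN-null TRAMP arrays minus the mean of the 7 late TRAMP arrays on that log2 scale, from 1 limma fit over all 38 transgenic arrays. A probe set is called changed at a Benjamini-Hochberg adjusted p under 0.05 over all 22206 probe sets. In all, 4777 probe sets were called (21.5%), 2475 higher (11.1%) and 2302 lower (10.4%) in the OPN-null tumours, and the median difference over all probe sets was 0.03. Among those past 2-fold, falls outnumbered rises, with 674 lower and 349 higher. The levels of the 2 groups did not overlap for 3964 probe sets (17.9%). Late TRAMP arrays correlated with each other at 0.952 to 0.984 across probe sets and with the OPN-null arrays at 0.837 to 0.924. The 3 OPN-null arrays were less alike, at 0.925, 0.929 and 0.964.

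Several array measures moved with the group. The spiked hybridisation controls, bacterial transcripts added to every labelled sample, read 11.83, 12.19 and 11.59 in OT2, OT3 and OT6 against 10.44 to 10.98 in late TRAMP, and no other transgenic array reached the OPN-null range (10.06 to 11.41 over 35 arrays). That difference of 1.10 had an exact two-sided permutation p of 0.00833, the smallest that 120 splits allow, and an adjusted p of 0.0167 over the 4 array measures tested. GC background probes averaged 5.16 in the OPN-null and 4.82 in the late TRAMP arrays, with the same exact p of 0.00833. The separation of positive from negative control probes (AUC) averaged 0.708 against 0.731 (exact permutation p = 0.142), and OT3 was lowest at 0.683. A second fit that held the hybridisation controls as a covariate, added after the data were seen, called 2239 probe sets, 1309 higher and 930 lower of the 22206. List counts from that fit stand against these smaller overall counts. Because the 2 ranges do not overlap, this covariate and the genotype cannot be told apart, and the gene lists below are given with their counts in that covariate fit too, together with the differences of named genes whose call it ended.

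The transgene's own transcript was present in all 10 tumours. The 6 SV40 probe sets averaged 8.35, 7.32 and 8.01 in OT2, OT3 and OT6 and 7.02 to 7.70 in late TRAMP, where the highest of the 29 arrays without the transgene read 5.52. OT2 and OT6 lay above every late TRAMP array, and OT3 lay within the late TRAMP range. The difference of 0.59 had an exact two-sided permutation p of 0.0333 (adjusted 0.0444 over the 4 array measures), and with the median of the 6 probe sets in place of the mean it was 0.39 with an exact p of 0.208. Leaving out 1 array took the exact permutation p past 0.05 for 6 of the 10 arrays: to 0.167 without OT2, 0.0833 without OT6, 0.0714 without T1 or T4 and 0.0595 without T5 or T6. Without any 1 of the other 4 arrays it was 0.0238 to 0.0476.

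**Figure D1:**
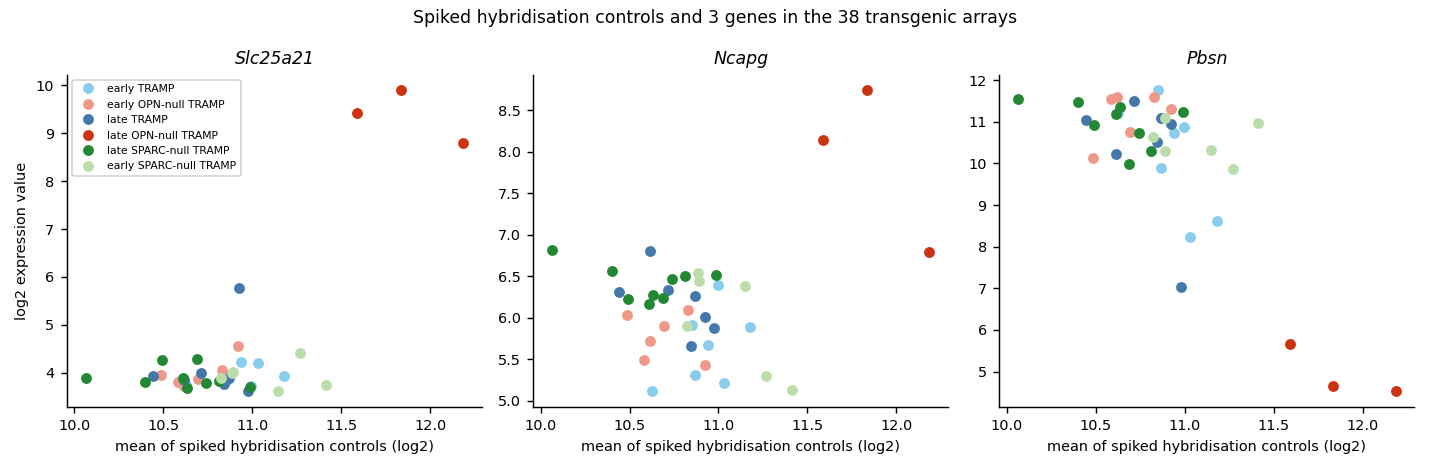
Level of Slc25a21, Ncapg and Pbsn (log2, vertical axes) against the mean of the spiked hybridisation controls (log2, horizontal axes) in the 38 transgenic arrays, by group. The 3 late OPN-null arrays, at 11.59 to 12.19, lie to the right of the other 35, which end at 11.41.

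Genes of the neuronal and neuroendocrine programme led the rises. Among genes whose symbol was not a predicted or clone-based name, the largest rise was that of Slc25a21. It is a mitochondrial carrier of oxodicarboxylates described further on. RNA-binding proteins that neurons use to shape their transcripts were also among the 20 largest. Of the 27 measured neuronal and epithelial splicing regulators, 10 rose and 4 fell (median 0.28; 9 higher and 1 lower in the covariate fit). Elavl4, a neuronal Hu protein that stabilises transcripts, lay at 4.46 to 5.49 (median 4.61) in late TRAMP and at 9.20, 8.19 and 9.84 in the OPN-null tumours, a rise of 4.33 (SE 0.21, adjusted p = 8.49e-18). Its late TRAMP mean exceeded 38.6% of the negative control probe sets and its OPN-null mean 94.6%. Elavl3, its close relative, read 4.28 to 5.75 (median 4.88) in late TRAMP and 9.18, 8.68 and 8.73 in OT2, OT3 and OT6, a rise of 3.99 (SE 0.20, adjusted p = 2.02e-17). Neither gene's groups overlapped. Nova1, a neuronal splicing factor, lay at 6.03 to 6.90 (median 6.39) in late TRAMP and at 8.57, 7.90 and 8.76 in the OPN-null tumours, and rose by 1.98. Khdrbs2, a brain splicing regulator, rose by 1.36. The 4 that fell were Rbm47 by 1.44, Esrp2, which sets epithelial splice forms, by 1.0 and the muscleblind genes Mbnl1 by 1.05 and Mbnl2 by 0.81. Rbm47 (-1.15), Esrp2 (-0.33), Mbnl1 (-0.13) and Mbnl2 (-0.13) were not called in the covariate fit.

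Synaptic vesicle genes rose, with 13 of 33 measured members higher and 1 lower (median 0.31; 11 higher and 0 lower in the covariate fit). Syt1, the calcium sensor of vesicle fusion, lay at 6.69 to 9.06 (median 7.12) in late TRAMP and at 11.87, 10.90 and 11.29 in the OPN-null tumours. All 3 OPN-null tumours lay above every late TRAMP tumour, the nearest of which was T5, and the rise was 4.04 (SE 0.30, adjusted p = 5.17e-13). Snap25, a SNARE protein of the same fusion machine, lay at 5.33 to 6.04 (median 5.57) in late TRAMP and at 8.66, 6.5 and 8.45 in OT2, OT3 and OT6, a rise of 2.29. Snap91, a clathrin adaptor of vesicle recycling, rose by 1.98, and Rims2, an active zone scaffold, by 1.68, while the SNARE gene Vamp1 fell by 0.53. Of 30 measured genes of dense-core granules and peptide hormones, 9 rose and 1 fell (median 0.22; 7 higher and 2 lower in the covariate fit, median -0.10). Chga, the granule protein used as a neuroendocrine marker, lay at 5.84 to 6.26 (median 5.97) in late TRAMP and at 7.30, 7.14 and 7.38 in the OPN-null tumours, and rose by 1.26 (SE 0.17, adjusted p = 7.28e-07). Chgb, its relative, rose by 1.25, Ddc, the decarboxylase that makes dopamine and serotonin, by 1.90, and the neuronal Notch ligand Dner by 1.23. Pam, which amidates peptide hormones, went the other way and fell by 1.90, with 7.97 to 9.82 (median 8.51) in late TRAMP and 6.06, 6.86 and 6.96 in OT2, OT3 and OT6. The calls for Vamp1 (-0.35) and Pam (-0.12) ended with the covariate.

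Among 37 measured transcription factors of neural fate, 12 rose and 1 fell (median 0.25; 4 higher and 1 lower in the covariate fit). Without T6, 7 rose. Onecut1, a homeodomain factor of liver and developing neurons, lay at 6.91 to 7.46 (median 7.07) in late TRAMP and at 10.03, 8.94 and 9.92 in the OPN-null tumours, a rise of 2.54 (SE 0.15, adjusted p = 1.24e-15). The groups did not overlap, and T5 was the highest late TRAMP tumour. Prox1, a homeobox regulator of neural and lymphatic fate, rose by 1.5, Insm1, a zinc finger factor of neuroendocrine cells, by 1.41, and Rcor2, a partner of the repressor REST, by 1.24. Insm1 read 4.55 to 5.50 (median 5.15) in late TRAMP and 6.68, 6.76 and 6.04 in OT2, OT3 and OT6. Mycl, a Myc family member, fell by 1.27. Rest, which represses neuronal genes in other tissues, and Foxa2 were not called, with differences of -0.14 (SE 0.16, adjusted p = 0.561) and -0.07 (SE 0.13, adjusted p = 0.754). Rest averaged 4.13 in late TRAMP and 3.99 in the OPN-null tumours, below the negative control median of 5.37. At that level the missing call cannot tell whether Rest changed. Sox2, a stem cell factor, was not called at -0.50 (SE 0.20, adjusted p = 0.0724). Insm1 (0.79) and Rcor2 (0.74) were not called once the covariate was held.

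Excitability and wiring genes moved the same way. Of 33 measured voltage-gated channel genes 13 rose and 2 fell (median 0.31; 4 higher and 2 lower in the covariate fit). Scn3a, a neuronal sodium channel, lay at 4.51 to 5.63 (median 4.90) in late TRAMP and at 8.59, 7.03 and 7.53 in the OPN-null tumours, and rose by 2.75 (SE 0.22, adjusted p = 2.06e-12). The sodium channels Scn8a and Scn1a rose by 1.42 and 1.13, and the calcium channel Cacna1d by 0.93. Kcnmb1, the potassium channel subunit of smooth muscle, fell by 1.14, and Cacnb2 by 1.10. Axon growth and guidance genes gave 21 higher and 2 lower of 46 measured (median 0.42; 15 higher and 0 lower in the covariate fit). Epha7, an ephrin receptor, lay at 5.88 to 6.78 (median 6.29) in late TRAMP and at 9.78, 9.11 and 10.10 in the OPN-null tumours, with no overlap and a rise of 3.36 (SE 0.18, adjusted p = 5.8e-17). The netrin receptor Dcc rose by 1.85 and the ephrin ligand Efna5 by 1.75, whereas Efnb2 fell by 0.76 and Sema6a by 0.53. Robo1, the Slit receptor, lay at 7.15 to 7.40 (median 7.28) in late TRAMP and at 9.74, 7.08 and 10.87 in the OPN-null tumours. It rose by 1.96 (SE 0.38, adjusted p = 0.000206), but OT3 lay below every late TRAMP tumour while OT2 and OT6 lay far above. Neuronal adhesion molecules gave 16 higher and 2 lower of 41 measured (median 0.30; 6 higher and 0 lower in the covariate fit), led by Pcdh8, an activity-regulated protocadherin, which lay at 5.75 to 6.43 (median 5.86) in late TRAMP and at 9.71, 8.16 and 9.21 in the OPN-null tumours, a rise of 3.09 (SE 0.20, adjusted p = 2.43e-14). Lrrn1, a neuronal leucine-rich repeat protein, rose by 2.53, Nlgn1, a postsynaptic neuroligin, by 1.32 and the neural cadherin Cdh2 by 1.16. Lrrtm2 fell by 1.53 and Pcdh7 by 0.52. Cacnb2 (-0.24), Efnb2 (-0.14), Sema6a (-0.42), Lrrtm2 (-1.01) and Pcdh7 (-0.075) were not called in the covariate fit. B6, the TRAMP -/- array with high hybridisation controls, was also read on these lists, as the median of members minus the late TRAMP mean. It read 0.513 for neural fate (OPN-null tumours 0.177 to 0.329), 0.316 for synaptic vesicles (0.163 to 0.485) and 0.22 for granules (0.145 to 0.391). Channels read 0.25 (0.171 to 0.364), adhesion 0.308 (0.314 to 0.396), axon genes 0.149 (0.32 to 0.424) and splicing regulators -0.272 (0.296 to 0.471). On lists described further on, class I presentation read -0.517 (-0.702 to -0.368) and protein export -0.496 (-0.745 to -0.405). The androgen axis read -0.313 (-0.533 to -0.121) and epithelial transcription factors and keratins -0.179 (-0.255 to -0.134). Junctions read -0.341 (-0.654 to -0.382) and secretory products -0.513 (-1.119 to -0.585), both above that range. Smooth muscle was also above it, at -0.322 (-0.935 to -0.859). Mitosis read -0.275 (0.544 to 0.942). The cause was not tested.

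Markers of autonomic neurons and glia, which nerves inside the gland would bring, gave 4 higher and 1 lower of 11 measured (median 0.20; 0 higher and 1 lower in the covariate fit). Chrna3, the ganglionic nicotinic receptor, rose by 0.76 and the peripheral filament Prph by 0.53, and Hand2, a factor of sympathetic neurons, fell by 0.56. Without T3, T5 or T7, 2 rose, and without T6 or any 1 OPN-null tumour, 1 rose. Their part in the rise of neuronal genes was not tested. The calls for Chrna3 (0.84) and Prph (0.62) ended with the covariate.

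**Figure D2:**
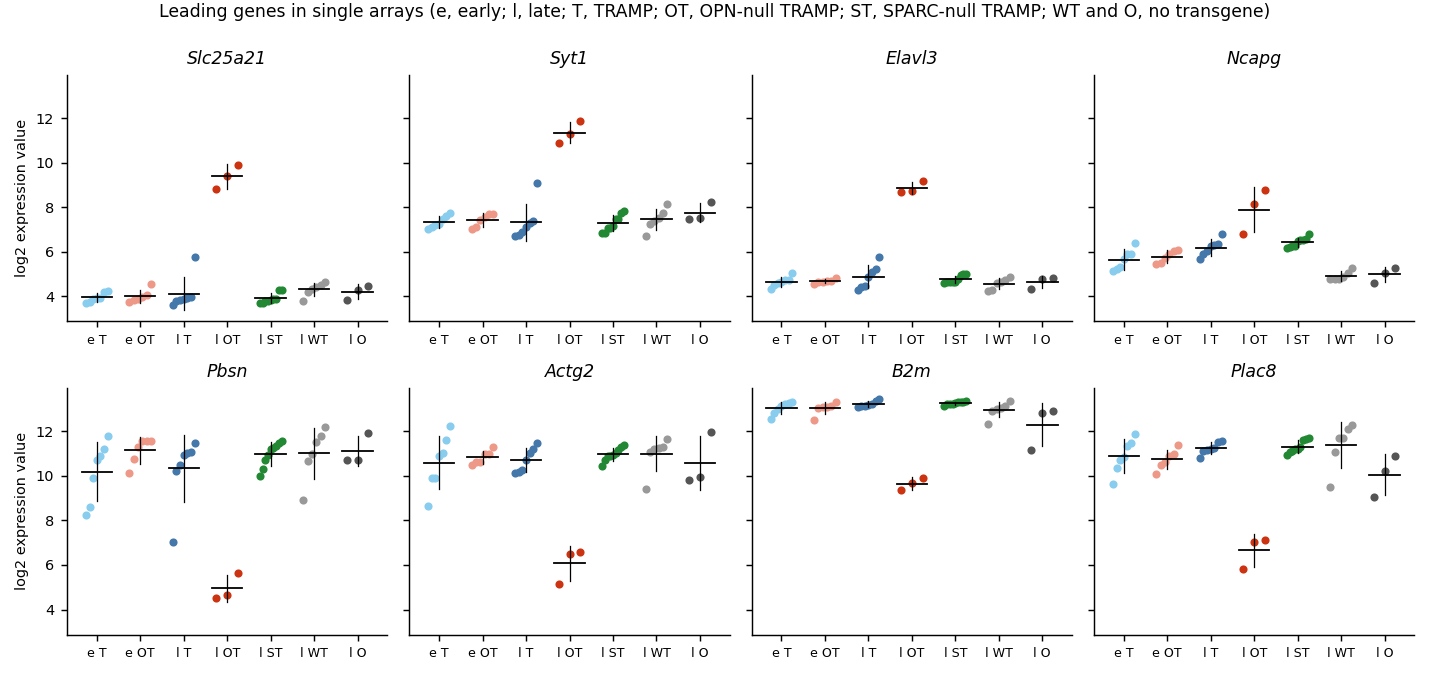
Log2 level of 8 genes in each array (points), by group, with the group mean and SD as bars. The OPN-null late tumours are apart from late TRAMP for Slc25a21, Syt1, Elavl3, Pbsn, Actg2, B2m and Plac8, and for Ncapg OT3 at 6.79 lies within the late TRAMP range.

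Other genes among the 20 largest rises came from several families. Ccn3, a matricellular growth regulator, lay at 5.27 to 8.11 (median 5.81) in late TRAMP and at 10.78, 10.27 and 10.58 in the OPN-null tumours, a rise of 4.30 (SE 0.35, adjusted p = 4.12e-12). Necab1, a neuronal calcium-binding protein, lay at 7.01 to 8.06 (median 7.26) in late TRAMP and at 10.82, 9.48 and 10.57 in OT2, OT3 and OT6, up by 2.95. The endoplasmic reticulum protein Rtn1 rose by 2.90, the glutamate receptor Grm7 by 2.78, Prkar1b, a regulatory subunit of protein kinase A, by 2.48, Csrnp3, a nuclear protein, by 2.53 and the orphan receptor Gpr85 by 2.33. Trim59, a ubiquitin ligase, lay at 4.38 to 5.71 (median 5.49) in late TRAMP and at 8.19, 8.03 and 7.46 in the OPN-null tumours, up by 2.57 (SE 0.30, adjusted p = 4.37e-08). Troap, a spindle-associated protein, rose by 2.40. Lgi1, a secreted neuronal protein, lay at 3.91 to 5.95 (median 4.11) in late TRAMP and at 7.88, 5.69 and 7.47 in the OPN-null tumours. Its groups overlapped, because OT3 lay below T3, and it was the 1 gene of the 20 where they did. Over all probe sets 17.9% did not overlap, and the 20 were picked for large differences between these same groups. OT3 was the lowest of the 3 OPN-null tumours for 16 of the 20 genes and OT2 the highest for 13. Within late TRAMP, T5 was the highest array for 16 of the 20.

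Slc25a21 carries oxoadipate and oxoglutarate across the inner mitochondrial membrane, a step in the breakdown of lysine and tryptophan. It lay at 3.61 to 5.76 (median 3.88) in late TRAMP and at 9.91, 8.80 and 9.42 in the OPN-null tumours. All 3 OPN-null tumours stood above T5, the highest late TRAMP tumour, and T5 stood above the other 6. The rise was 5.27 (SE 0.27, adjusted p = 2.19e-17). Medians were 3.82 in late SPARC-null TRAMP, 3.93 in early TRAMP, 3.91 in early OPN-null TRAMP, 4.37 in TRAMP -/- and 4.30 in OPN-/-TRAMP -/- animals, all below T5. These medians, and the late TRAMP levels other than T5, lay below the negative control median of 5.37, so 5.27 is not an exact size. The genes whose levels followed it most closely over the 38 transgenic arrays were Elavl4 (r = 0.971), Onecut1 (0.967), Elavl3 (0.963), Pcdh8 (0.963) and Syt1 (0.959). Over the 35 arrays without the late OPN-null tumours these correlations were 0.546, 0.530, 0.385, 0.530 and 0.598, so a good part of each rests on those 3 arrays. Both sets of values are descriptions, over arrays that share one normalisation. In the second set many of the Slc25a21 levels lay below the negative control median.

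Few other mitochondrial carriers rose. Of 47 measured carriers 2 rose and 11 fell (median -0.16; 3 higher and 4 lower in the covariate fit). Without T3, OT3 or OT6 the number that fell was 7, 5 or 6, and without OT2, 4 rose. The brain uncoupling carrier Slc25a27 rose by 1.59. The carriers that fell included the phosphate carrier Slc25a3 by 1.66, the mitoferrins Slc25a37 by 1.64 and Slc25a28 by 0.83, and Slc25a36 by 1.74. In the covariate fit Slc25a3, Slc25a36 and Slc25a28 turned to positive differences. Among 22 measured enzymes of lysine and tryptophan breakdown 1 rose, Pipox by 0.50, and 3 fell, Hadh by 1.49, Echs1 by 0.46 and Ido2 by 0.42 (median -0.01; 1 higher and 3 lower in the covariate fit). Those shares, 4.5% higher and 13.6% lower, stand against 11.1% and 10.4% over all probe sets. Pipox also turned its sign in the covariate fit. Of 13 measured genes that lie beside Slc25a21 on chromosome 12, 5 rose and none fell (median 0.44; 5 higher and 0 lower in the covariate fit), Slc25a21 itself among them, and without OT6, 2 rose. Pax9, a paired-box factor and its near neighbour, lay at 6.94 to 7.91 (median 7.57) in late TRAMP and at 10.06, 7.93 and 10.20 in the OPN-null tumours, up by 1.91 (SE 0.25, adjusted p = 2.62e-07). OT3 was only just above the highest late TRAMP tumour, and OT2 and OT6 were well clear of it. Mbip, a kinase inhibitor gene, rose by 0.52, the neuroendocrine factor gene Insm2 by 0.46 and the transport coat gene Sec23a by 0.44. Slc25a37 (-0.48), Hadh (-0.56), Echs1 (-0.11), Mbip (0.39), Insm2 (0.15) and Sec23a (0.36) were not called once the covariate was held.

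Imprinted genes, which are read from 1 parental copy, gave 10 higher and 3 lower of 32 measured (median 0.12; 5 higher and 2 lower in the covariate fit). Ipw, a noncoding transcript of the Prader-Willi region, lay at 5.44 to 7.83 (median 6.63) in late TRAMP and at 11.20, 11.44 and 11.23 in the OPN-null tumours, a rise of 4.79 (SE 0.41, adjusted p = 2.66e-11). The groups did not overlap. Ipw was also higher in OPN-null animals without the transgene, with a median of 7.87 in OPN-/-TRAMP -/- against 6.48 in TRAMP -/-, a comparison not tested here. Peg10 rose by 1.41, Gnas, which encodes a stimulatory G protein, by 1.31, and Ndn, a growth suppressor of neurons, by 1.26. Dcn, a proteoglycan of fibroblasts, fell by 3.21, Igf2r by 1.81 and the amino acid transporter Slc38a4 by 0.44. Zfp992, a zinc finger gene, was not on the imprinted list but was among the 20 largest falls. It lay at 8.73 to 9.77 (median 9.57) in late TRAMP and at 4.63, 4.38 and 5.32 in the OPN-null tumours, and fell by 4.61 (SE 0.56, adjusted p = 7.51e-08). It too was low without the transgene, with a median of 6.07 in OPN-/-TRAMP -/- against 9.29 in TRAMP -/-. Igf2r (-0.19) and Slc38a4 (-0.37) were not called in the covariate fit.

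Secretory genes of the prostate led the falls. Of 32 measured secretory products 16 fell and 1 rose (median -0.82; 1 higher and 7 lower in the covariate fit). Pbsn, encoding probasin, the androgen-induced protein whose rat promoter drives the transgene, lay at 7.04 to 11.49 (median 10.95) in late TRAMP and at 4.66, 4.52 and 5.66 in the OPN-null tumours. The groups did not overlap, and T4 stood below the other 6 late TRAMP tumours. Pbsn fell by 5.39 (SE 0.63, adjusted p = 3.13e-08), while the SV40 probe sets, read from a transgene under a probasin promoter, did not fall. At a mean of 4.95 its level in the OPN-null tumours exceeded 42.8% of the 5222 negative control probe sets, so this difference and others that end there are not exact sizes. Tgm4, the prostate transglutaminase, lay at 8.86 to 12.65 (median 12.06) in late TRAMP and at 7.35, 7.73 and 7.30 in the OPN-null tumours, with T4 again lowest, and fell by 4.26 (SE 0.60, adjusted p = 1.3e-06). In the covariate fit the call for Tgm4 was lost at -2.16, and so was that for Wfdc15b, a protease inhibitor of prostatic fluid, which went from -4.10 to -0.74. Pate9, of a family of secreted male-tract proteins, fell by 4.80 and the defensin Defb50 by 4.43. Pigr, the receptor that carries IgA across epithelium, lay at 8.30 to 11.10 (median 10.01) in late TRAMP and at 5.12, 5.02 and 4.90 in the OPN-null tumours, and fell by 4.75. The lactoferrin gene Ltf rose by 0.39. The call for Ltf (0.34) ended with the covariate.

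The promoter of the mouse Pbsn gene is printed because the transgene uses its rat counterpart. It is the RefSeq window (GRCm38.p6, chrX:77853451-77853750, minus strand) from 250 bases before to 50 after the start, 5' to 3', with the half-site AGAACA, which reads TGTTCT on the other strand, in capitals.
Pbsn: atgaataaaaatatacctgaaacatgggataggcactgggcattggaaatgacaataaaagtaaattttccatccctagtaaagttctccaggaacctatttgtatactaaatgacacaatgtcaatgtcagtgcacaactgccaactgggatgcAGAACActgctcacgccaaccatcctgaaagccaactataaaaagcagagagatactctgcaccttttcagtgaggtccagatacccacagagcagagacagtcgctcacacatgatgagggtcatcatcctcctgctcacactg
The half-site begins 95 bases before the start. TGTTCT, searched on both strands, was found in 9 of the 24 measured secretory genes with a window and in the windows of 21.3% of all genes. A match is a description of the letters and says nothing of binding.

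Among 32 measured genes of the androgen axis none rose and 11 fell (median -0.29; 3 higher and 2 lower in the covariate fit). Mme, the androgen-regulated neprilysin, fell by 2.57, the transcriptional coactivator Ncoa4 by 1.57 and the transcription factor Gata2 by 1.42. Hpgd, which inactivates prostaglandins, was not on this list but was among the 20 largest falls. It lay at 7.60 to 9.44 (median 7.86) in late TRAMP and at 4.45, 4.29 and 4.57 in the OPN-null tumours, and fell by 3.80 (SE 0.54, adjusted p = 1.68e-06). Foxa1, a pioneer transcription factor of glandular epithelium, and Hoxb13, a prostate homeobox gene, were not called, at -0.13 (SE 0.23, adjusted p = 0.723) and -0.40 (SE 0.27, adjusted p = 0.301). In the covariate fit both turned, Foxa1 to 1.15 and a call, Hoxb13 to 0.92 without one. Mme (-1.35), Ncoa4 (-0.84), Gata2 (-0.50) and Hpgd (-1.67) were not called once the covariate was held.

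Seminal vesicle tissue, which can come along when a prostate is dissected, was measured by 9 marker genes, none of which was called (median -1.70; 0 higher and 0 lower in the covariate fit). The level of the list, as the median over its members of the level minus the late TRAMP mean, ran from -1.65 to 3.80 in late TRAMP. It ran from -1.87 to -1.37 in the OPN-null tumours. Svs5, a seminal vesicle secretion, lay at 5.24 to 13.19 (median 12.03) in late TRAMP and at 5.37, 5.56 and 4.98 in the OPN-null tumours, with a difference of -5.14 (SE 1.91, adjusted p = 0.05) that was not called. OPN-null tumours were thus at the low end of a wide late TRAMP range, and the part of that tissue in the fall of secretory genes was not tested.

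Epithelial genes fell together with the secretory ones. Of 32 measured epithelial transcription factors and keratins none rose and 11 fell (median -0.18; 0 higher and 3 lower in the covariate fit). Ehf, an ETS factor of glandular epithelium, lay at 8.08 to 8.77 (median 8.28) in late TRAMP and at 6.46, 5.86 and 5.45 in the OPN-null tumours, and fell by 2.41 (SE 0.26, adjusted p = 9.37e-09). The groups did not overlap. Grhl2, which maintains junction genes, fell by 2.01, the luminal keratin Krt18 by 1.91 and Krt4 by 1.13. Krt18 still exceeded 86.4% of the negative control probe sets in the OPN-null tumours and 96.5% in late TRAMP. Junction and polarity genes gave 1 higher and 19 lower of 42 measured (median -0.55; 0 higher and 5 lower in the covariate fit). Cdh1, the epithelial cadherin, lay at 7.99 to 8.69 (median 8.13) in late TRAMP and at 6.64, 6.79 and 5.77 in the OPN-null tumours, a fall of 1.81 (SE 0.24, adjusted p = 5.01e-07). Epcam fell by 1.81, the protease inhibitor Spint1 by 2.04 and the apical membrane protein Prom1 by 1.92. Scrib, a polarity scaffold, rose by 0.43. Krt18 (-0.96), Epcam (-0.24), Spint1 (-0.15), Prom1 (-0.76) and Scrib (0.31) were not called in the covariate fit.

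The other genes among the 20 largest falls came from several families. Plac8, a small cysteine-rich protein, lay at 10.82 to 11.58 (median 11.22) in late TRAMP and at 5.81, 7.02 and 7.14 in the OPN-null tumours. No tumours overlapped, and the fall was 4.59 (SE 0.31, adjusted p = 3.32e-14), with -4.47 in the covariate fit. The tetraspanins Tspan1 and Tspan8 fell by 4.88 and 4.23, Anxa4, a calcium-dependent membrane-binding annexin, by 4.30, A4galt, a glycolipid-forming transferase, by 4.15, Ly6e, a GPI-anchored protein, by 4.07, the adhesion receptor Adgrg6 by 3.73 and the membrane protein Smim22 by 3.68. Upk1b, a uroplakin of bladder lining, fell by 3.83, and 5 of the 9 measured urothelial markers fell with none rising (median -0.48; 0 higher and 1 lower in the covariate fit). Without T3, 3 urothelial markers fell, and without any 1 OPN-null tumour, 2 fell. The part of bladder tissue in these falls was not tested. All of the 20 largest falls had groups that did not overlap, against 17.9% of all probe sets. They were picked for large differences between these same groups, so this is no separate result.

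Contractile genes had the largest share of falls among the lists. Of 38 measured smooth muscle genes 23 fell and none rose (median -0.82; 0 higher and 8 lower in the covariate fit, median -0.41). Actg2, the enteric smooth muscle actin, lay at 10.14 to 11.46 (median 10.70) in late TRAMP and at 5.16, 6.60 and 6.47 in the OPN-null tumours, a fall of 4.64 (SE 0.44, adjusted p = 2.37e-10). Acta2, the vascular smooth muscle actin, lay at 8.50 to 10.17 (median 9.16) in late TRAMP and at 4.61, 5.98 and 5.02 in the OPN-null tumours, a fall of 4.04 (SE 0.44, adjusted p = 7.35e-09). For both genes every OPN-null tumour lay below every late TRAMP tumour. Synpo2, an actin-bundling protein of muscle, fell by 4.21 and Cnn1, calponin, by 3.20. The list's level by array, the median over its members of the level minus the late TRAMP mean, ran from -0.31 to 0.35 in late TRAMP. It ran from -0.94 to -0.86 in the OPN-null tumours.

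A CArG box, the site bound by serum response factor at contractile genes, was searched on both strands in the same windows. It was found in 3 of the 32 smooth muscle genes with a window and in 1.8% of all genes. Myl9, a myosin light chain chosen after its value was seen as the called gene with the box, fell by 1.74 (SE 0.28, adjusted p = 1.84e-05). Its RefSeq window (GRCm38.p6, chr2:156775214-156775513, plus strand) has the box in capitals, beginning 161 bases before the start.
Myl9: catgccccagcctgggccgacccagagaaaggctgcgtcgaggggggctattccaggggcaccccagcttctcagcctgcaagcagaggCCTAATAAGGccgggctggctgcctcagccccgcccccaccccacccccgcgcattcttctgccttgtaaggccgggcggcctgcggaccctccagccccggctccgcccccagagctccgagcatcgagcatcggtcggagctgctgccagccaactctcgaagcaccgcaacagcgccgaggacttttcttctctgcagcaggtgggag

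Fibroblast markers moved with the muscle genes, with 7 lower and 1 higher of 12 measured (median -0.87; 0 higher and 2 lower in the covariate fit), and their level by array ran from -0.85 to -0.70 in the OPN-null tumours. Dcn lay at 10.35 to 11.51 (median 10.76) in late TRAMP and at 7.09, 7.80 and 7.86 in the OPN-null tumours. Lum, a collagen-binding proteoglycan like Dcn, fell by 2.04, and Fap, the activated fibroblast protease, rose by 0.54. Endothelial markers gave 2 higher and 4 lower of 12 (median -0.23; 1 higher and 1 lower in the covariate fit), with Vwf up by 0.56 and Cdh5 and Emcn down at -0.72 and -0.62. Skeletal muscle gave 2 lower of 12 (Tnnc2 -1.16, Acta1 -0.88) and adipose tissue 2 lower of 9 (Lep -0.84, Plin4 -0.54). Skeletal muscle gave 0 lower and adipose tissue 2 in the covariate fit. Without OT2 or OT6, 2 endothelial markers fell, and without T6 or T7, 4 adipose markers fell. The share of stromal tissue in the falls of contractile and matrix genes was not tested. The calls for Lum (-0.032), Fap (0.062), Vwf (0.31), Cdh5 (-0.09), Emcn (-0.34), Tnnc2 (-0.37) and Acta1 (-1.10) ended with the covariate. Lep (-0.50) was not called once the covariate was held.

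Receptors and partners of osteopontin changed little as a group. Of 23 measured receptors and processing genes 2 rose and 2 fell (median -0.03; 0 higher and 2 lower in the covariate fit). Each share, 8.7%, was under the 11.1% higher and 10.4% lower over all probe sets. Without T2, 4 fell. Itgav, the alpha chain of the vitronectin receptor that binds osteopontin, lay at 8.90 to 9.32 (median 8.96) in late TRAMP and at 8.35, 8.85 and 8.48 in the OPN-null tumours, a fall of 0.44 (SE 0.11, adjusted p = 0.00309). Cd44, the other receptor class, lay at 3.94 to 4.71 (median 4.23) in late TRAMP and at 4.11, 3.84 and 3.5 in the OPN-null tumours, and was not called at -0.49 (SE 0.18, adjusted p = 0.054). All of these Cd44 levels were below the negative control median of 5.37, so the missing call cannot tell whether Cd44 changed. Mmp7, matrilysin, which cleaves osteopontin, lay at 8.88 to 10.72 (median 9.66) in late TRAMP and at 5.57, 6.61 and 5.77 in the OPN-null tumours, a fall of 3.65 (SE 0.46, adjusted p = 2.02e-07) with no overlap. Fam20c, the kinase that phosphorylates secreted proteins of this family, rose by 0.68, and Ibsp, bone sialoprotein, a relative of Spp1, by 0.65, though Ibsp changed sign in the covariate fit. Among 30 measured integrins and adhesion components 1 rose and 13 fell (median -0.30; 0 higher and 3 lower in the covariate fit). Fermt1, a kindlin that activates integrins, fell by 1.81, Ilk by 1.66, the talin gene Tln1 by 1.41 and the vinculin gene Vcl by 1.38, and the kinase Src rose by 0.42 but was at -0.0664 in the covariate fit. Matrix proteases and inhibitors gave 6 lower and none higher of 35 (median -0.17; 1 higher and 3 lower in the covariate fit), with Timp2 down by 1.58, Mmp14 by 0.90, the cathepsin Ctsb by 0.70 and Adamtsl1 by 0.60. Without OT2, 3 of these fell. Sparc, another matricellular gene, was not called at 0.23 (SE 0.18, adjusted p = 0.375). Fam20c (0.54), Fermt1 (-0.97), Ilk (-0.20), Tln1 (-0.57), Vcl (-0.94), Mmp14 (-0.66) and Ctsb (-0.089) were not called in the covariate fit. The call for Adamtsl1 (-0.36) ended with the covariate.

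Genes of protein export fell, with 20 lower and 1 higher of 47 measured (median -0.57). Tram1, which helps nascent chains into the endoplasmic reticulum, lay at 9.45 to 10.36 (median 9.57) in late TRAMP and at 7.65, 7.47 and 7.90 in the OPN-null tumours, a fall of 2.10 (SE 0.38, adjusted p = 8.33e-05). Sec11c, a signal peptidase subunit, fell by 2.07, the cargo receptor Tmed10 by 1.41 and Srpr, the signal recognition receptor, by 1.37, while the coat gene Sec23a rose by 0.44. The direction of this list depended on the covariate: with it, 2 rose and 2 fell, its median turned to 0.22, and Sec11c turned to 1.01. Without OT3, 11 fell. Tram1 (-0.31), Tmed10 (-0.0049) and Srpr (-0.62) were not called once the covariate was held.

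**Figure D3:**
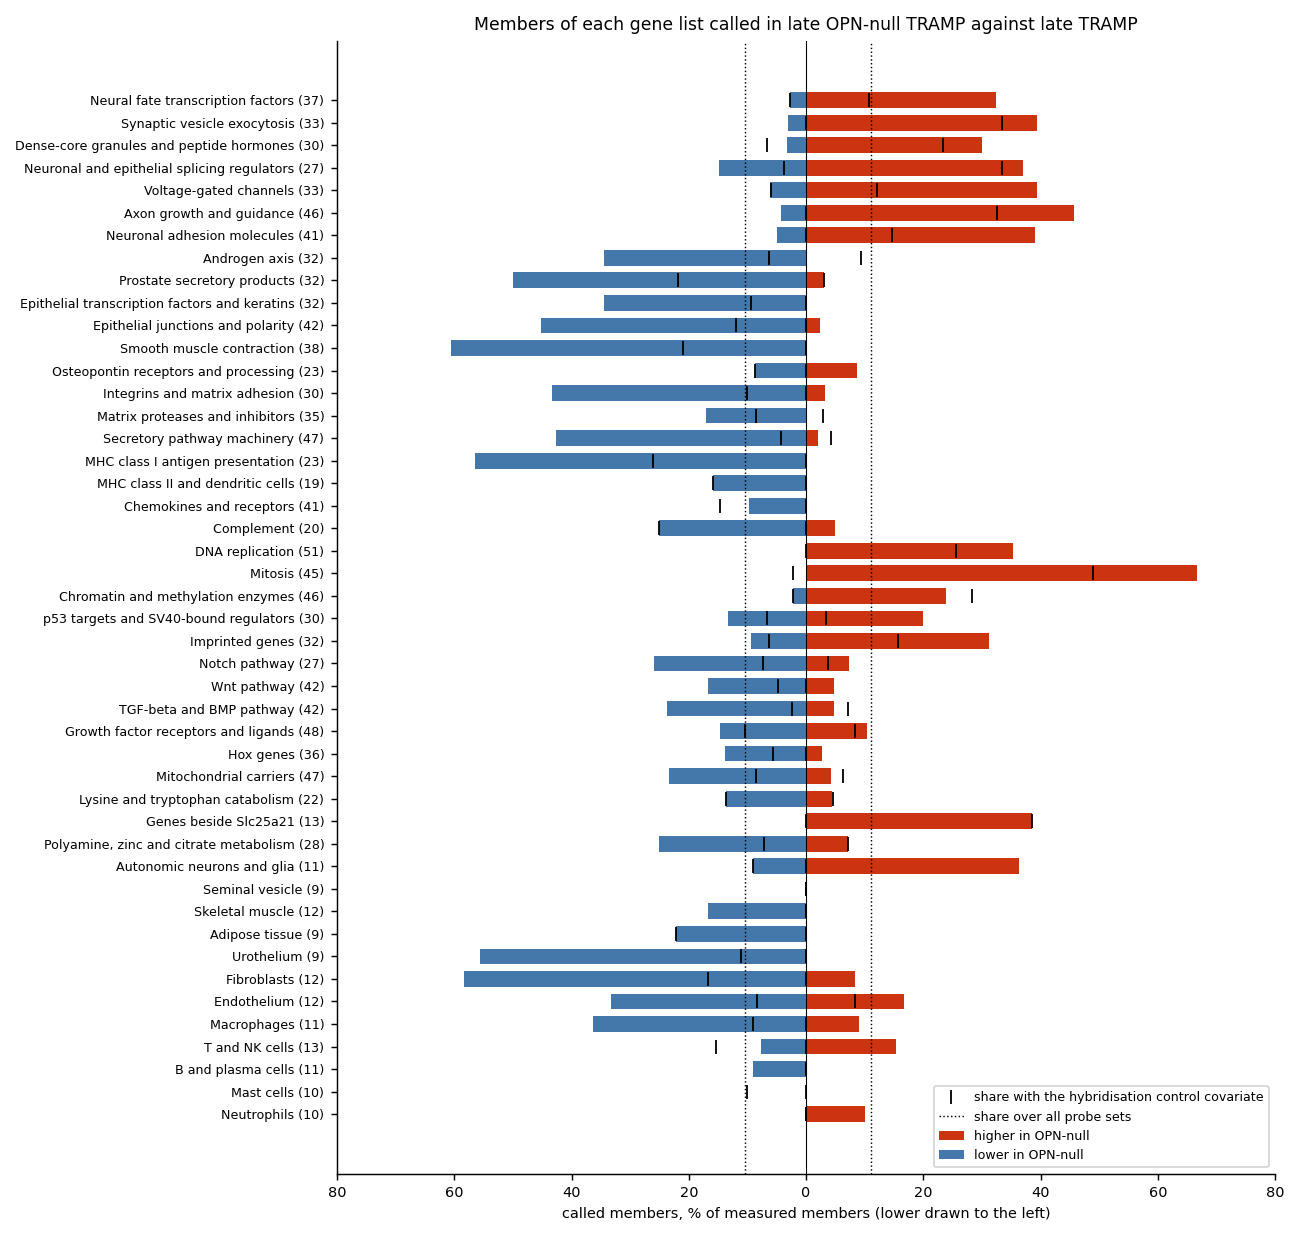
Share of the measured members of each gene list called higher (right) or lower (left) in late OPN-null TRAMP than in late TRAMP, in percent. Dotted lines give the shares over all probe sets without the covariate (11.1% higher, 10.4% lower) and black ticks the list shares in the covariate fit. That fit called fewer probe sets in all, 1309 higher and 930 lower of 22206. Ticks are smaller for smooth muscle (8 of 38 lower against 23) and close for synaptic vesicle genes (11 of 33 higher against 13).

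Antigen presentation by MHC class I fell, with 13 lower and none higher of 23 measured (median -0.57; 0 higher and 6 lower in the covariate fit). B2m, the light chain that every class I molecule needs, lay at 13.10 to 13.45 (median 13.17) in late TRAMP and at 9.92, 9.35 and 9.67 in the OPN-null tumours. All late TRAMP tumours lay within a narrow band and all 3 OPN-null tumours far below it, a fall of 3.59 (SE 0.22, adjusted p = 4.87e-15), with -2.93 in the covariate fit. H2-T23, a nonclassical heavy chain, fell by 2.35, the chaperone gene Calr by 1.32 and the classical heavy chain H2-K1 by 1.29. The B2m window (RefSeq GRCm38.p6, chr2:122147437-122147736, plus strand) is printed with a match to the interferon-stimulated response element in capitals, beginning 139 bases before the start.
B2m: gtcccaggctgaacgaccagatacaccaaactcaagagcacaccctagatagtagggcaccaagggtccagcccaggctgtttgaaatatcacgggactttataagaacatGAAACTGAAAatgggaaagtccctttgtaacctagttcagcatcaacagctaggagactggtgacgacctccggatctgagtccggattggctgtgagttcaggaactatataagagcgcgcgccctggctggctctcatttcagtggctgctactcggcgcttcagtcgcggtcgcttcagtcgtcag
The letters searched were GAAANNGAAA on both strands. They were found in 4 of the 20 measured class I genes with a window and in 4.0% of all genes.

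Other immune lists moved less. Class II and dendritic cell genes gave 3 lower and none higher of 19 (H2-DMb1 -0.50, Cd86 -0.47). Chemokines and their receptors gave 4 lower of 41, or 9.8%, under the 10.4% of all probe sets called lower (Cxcl14 -1.03, Ccl9 -0.96, Cxcr3 -0.48, Cxcl16 -0.42). Complement gave 1 higher, the regulator Cd46 at 0.54, and 5 lower of 20, among them the protease C1s1 at -2.12, the macrophage-made C1qa at -0.89, the receptor C3ar1 at -0.69 and Masp1 at -0.67. Macrophage markers gave 1 higher and 4 lower of 11 (Msr1 0.47, Mertk -0.75, Lyz2 -0.68). Without OT2 or OT3, 2 or 1 of the macrophage markers fell. T and NK cell markers gave 2 higher and 1 lower of 13, with Cd8a at 0.55, Cd4 at 0.52 and the cytotoxic granzyme Gzmb at -0.59. B and plasma cells gave 1 lower of 11, the secretory cell factor Xbp1 at -0.75, neutrophils 1 higher of 10, the granule peptide Camp at 0.62, and mast cells none of 10. In the covariate fit class II genes gave 3 lower, chemokines 6, complement 5, macrophages 1, T and NK cells 2 and mast cells 1, with 0 higher in all of these, and B cells and neutrophils gave no call. Cd4 turned to -0.30 and Xbp1 to 0.21. The part of immune cells in the fall of class I genes was not tested. H2-DMb1 (-0.59), Cd86 (-0.46), Cxcl14 (-0.77), Ccl9 (-0.99), Cxcr3 (-0.34), Cxcl16 (-0.23) and Cd46 (0.33) were not called in the covariate fit. The calls for C1s1 (-0.49), C3ar1 (-0.84), Msr1 (0.22), Mertk (-0.25), Lyz2 (-0.62), Cd8a (0.55) and Gzmb (-0.53) ended with the covariate. Camp (0.20) was not called once the covariate was held.

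Cell division genes rose. Of 45 measured mitosis genes 30 rose and none fell (median 0.77; 22 higher and 1 lower in the covariate fit, median 0.88). Ncapg, a condensin subunit that packs mitotic chromosomes, lay at 5.66 to 6.81 (median 6.26) in late TRAMP and at 8.75, 6.79 and 8.14 in the OPN-null tumours. OT2 and OT6 lay above every late TRAMP tumour and OT3 within their range, and the rise was 1.71 (SE 0.30, adjusted p = 5.11e-05). Ndc80, of the kinetochore, lay at 5.66 to 6.24 (median 5.95) in late TRAMP and at 7.30, 7.44 and 8.31 in the OPN-null tumours, a rise of 1.74 (SE 0.18, adjusted p = 1.25e-09). Kif23, a cytokinesis motor, rose by 1.60 and Smc4, a condensin core subunit, by 1.53. DNA replication genes gave 18 higher and none lower of 51 measured (median 0.37; 13 higher and 0 lower in the covariate fit): Dbf4, which activates replication origins, rose by 1.59, the E2F repressor E2f8 by 1.18, the sliding clamp gene Pcna by 1.15 and the cyclin gene Ccne2 by 1.10. Pcna (1.23) and Ccne2 (1.25) were not called in the covariate fit.

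The Ncapg promoter is printed as that of the leading mitosis gene with the motifs of that class. Its RefSeq window (GRCm38.p6, chr5:45669675-45669974, plus strand) shows in capitals the cell cycle homology letters TTTGAA, beginning 30 bases before the start, and ATTGG, which reads CCAAT on the other strand, beginning 176 bases before it.
Ncapg: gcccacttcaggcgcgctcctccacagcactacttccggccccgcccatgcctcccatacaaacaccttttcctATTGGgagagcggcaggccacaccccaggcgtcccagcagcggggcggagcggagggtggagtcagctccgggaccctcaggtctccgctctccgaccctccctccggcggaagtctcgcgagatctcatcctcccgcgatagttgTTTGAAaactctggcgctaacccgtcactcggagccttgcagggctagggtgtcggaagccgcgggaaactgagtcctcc
On either strand TTTGAA was in 25 of the 38 mitosis genes with a window and in 20.2% of all genes, and CCAAT in 27 of the 38 and in 41.1%. An E2F site, spelt either TTCCCGC or TTCGCGC and otherwise as TTGCCGC or as TTGGCGC, was in 27 of the 42 replication genes with a window and in 10.9% of all genes. These counts cover called and uncalled members alike and were not tested.

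**Figure D4:**
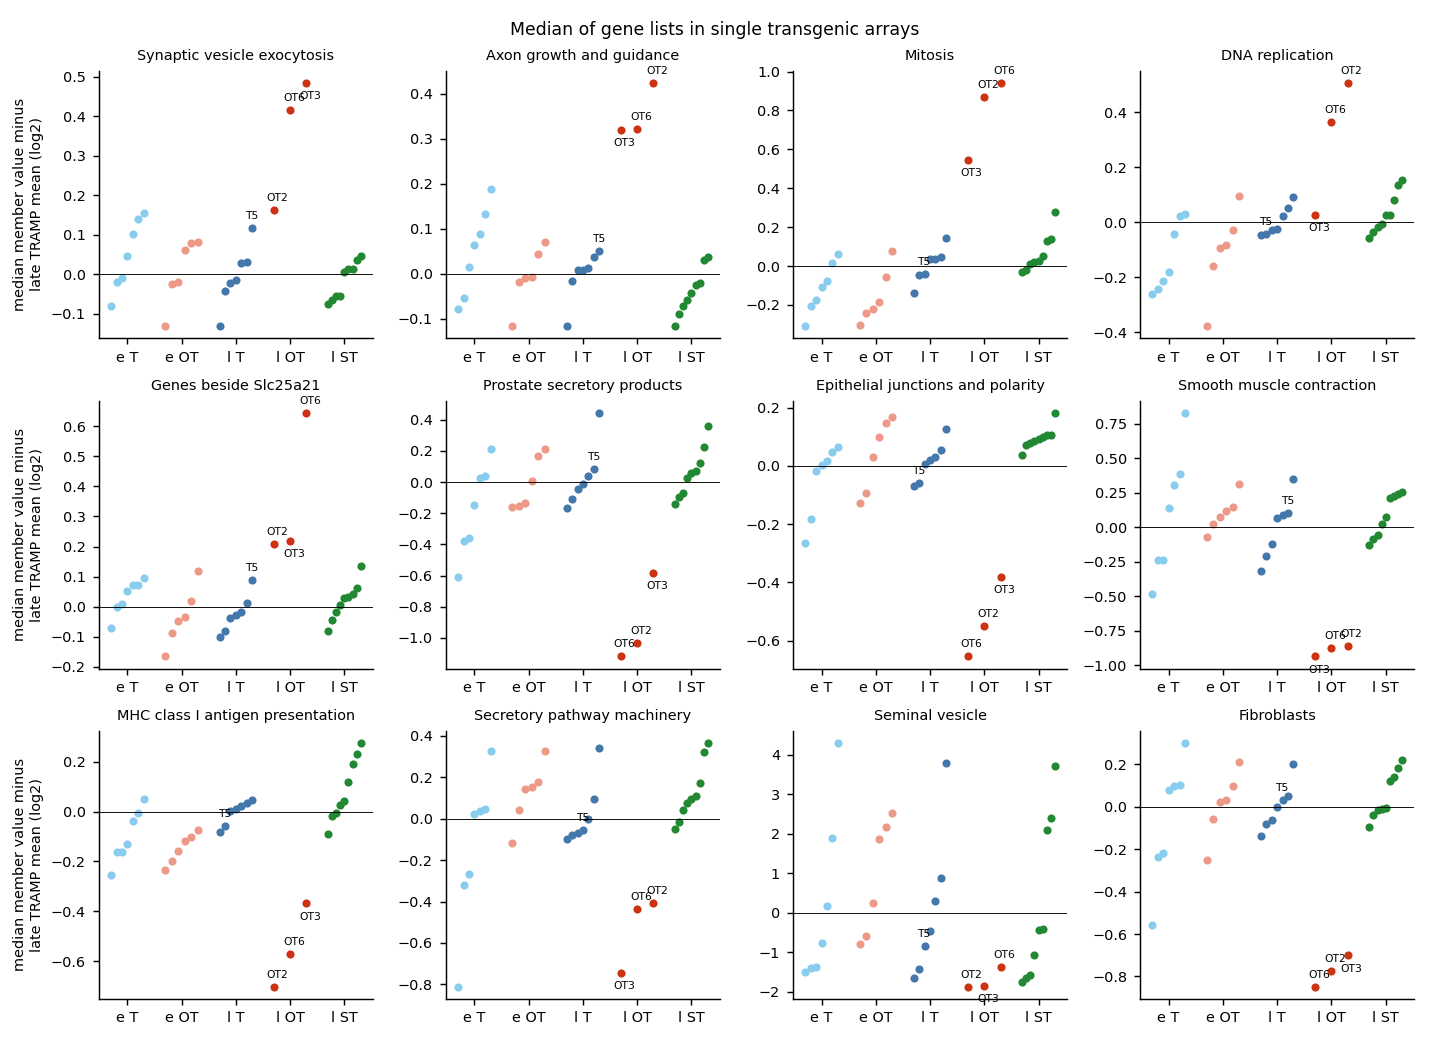
Level of 12 gene lists in each array (points) of 5 transgenic groups, as the median over members of the log2 level minus the late TRAMP mean. For mitosis the OPN-null arrays run from 0.54 to 0.94 against -0.14 to 0.15 in late TRAMP, and for smooth muscle from -0.94 to -0.86 against -0.31 to 0.35.

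Chromatin genes gave 11 higher and 1 lower of 46 measured (median 0.19; 13 higher and 1 lower in the covariate fit). Ezh2, the methyltransferase of the Polycomb complex, lay at 9.08 to 9.47 (median 9.34) in late TRAMP and at 10.69, 10.75 and 10.68 in the OPN-null tumours. The 3 OPN-null tumours were nearly equal and apart from all late TRAMP tumours, a rise of 1.38 (SE 0.22, adjusted p = 8.48e-06), yet the covariate fit gave 0.36 and no call. The nucleosome-binding Hmgn2 rose by 1.10, Hmgb3 by 1.04 and the neural remodeller Chd5 by 0.93, and Smarca2, the BRM ATPase, fell by 1.58. Of 30 measured p53 targets and regulators bound by the T antigens 6 rose and 4 fell (median 0.00; 1 higher and 2 lower in the covariate fit). Without OT2, 3 rose. The kinase gene Cdk6 rose by 1.15, its inhibitor Cdkn2c by 0.83, the stress gene Sesn2 by 0.63 and Plk3 by 0.42. The p53 targets Ccng1, Phlda3 and Ei24 fell by 1.40, 0.70 and 0.58, and the cyclin gene Ccnd2 by 0.42. Rb1, one of the proteins the T antigens bind, rose by 0.38 (SE 0.11, adjusted p = 0.0124). The calls for Chd5 (0.53), Cdkn2c (0.59), Sesn2 (0.17), Plk3 (0.13), Ccng1 (-0.0022), Ei24 (-0.095) and Ccnd2 (-0.34) ended with the covariate. Rb1 (0.34) was not called once the covariate was held.

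In the Notch, Wnt and TGF-beta pathways more members fell than rose. Notch genes gave 2 higher and 7 lower of 27 (median -0.11; 1 higher and 2 lower in the covariate fit), with the target Hey1 at 0.96 and Dtx1 at 0.43, and with Hey2 at -0.63, the glycosyltransferase Mfng at -0.51, Dtx4 at -0.51 and the receptor Notch2 at -0.46. Without OT3 or OT6, 4 or 2 Notch genes fell. Wnt genes gave 2 higher and 7 lower of 42 (median -0.07; 0 higher and 2 lower in the covariate fit), with the nuclear factor Lef1 at 0.52 and the ligand Wnt7a at 0.41 against the agonist Rspo3 at -2.72, Tcf7l2 at -2.03, the receptor Fzd6 at -1.17 and the inhibitor Wif1 at -0.74. In the covariate fit Wnt7a, Fzd6 and Wif1 changed sign. Rspo3 lay at 7.42 to 8.53 (median 7.94) in late TRAMP and at 4.03, 5.70 and 6.02 in the OPN-null tumours, with no overlap. TGF-beta and BMP genes gave 2 higher and 10 lower of 42 (median -0.23; 3 higher and 1 lower in the covariate fit). Without OT6, 5 fell. The ligand Tgfb2 was at 0.67 and the receptor Acvr1 at 0.49, against the receptors Bmpr1b at -1.95, Tgfbr3 at -1.47 and Tgfbr2 at -0.90 and the antagonist Chrdl1 at -0.91. Hey1 (0.40), Dtx1 (0.02), Hey2 (-0.25), Dtx4 (-0.14), Notch2 (-0.61), Lef1 (0.55) and Rspo3 (-1.85) were not called in the covariate fit. The calls for Acvr1 (0.18), Bmpr1b (-0.81), Tgfbr3 (-0.39) and Chrdl1 (-0.40) ended with the covariate.

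Growth factor receptors and ligands gave 5 higher and 7 lower of 48 (median -0.08; 4 higher and 5 lower in the covariate fit). Those shares, 10.4% higher and 14.6% lower, were near the 11.1% and 10.4% over all probe sets. Without OT3, 3 rose. Erbb2, an epithelial receptor tyrosine kinase, lay at 7.21 to 8.05 (median 7.73) in late TRAMP and at 4.96, 5.38 and 4.78 in the OPN-null tumours. Its groups were well apart, with a fall of 2.66 (SE 0.26, adjusted p = 7.27e-10). Met, the hepatocyte growth factor receptor, lay at 6.27 to 6.97 (median 6.62) in late TRAMP and at 4.28, 4.81 and 4.51 in the OPN-null tumours, a fall of 2.04 (SE 0.26, adjusted p = 2.12e-07). Fgfr2 fell by 0.79 and the stromal ligand Igf1 by 0.72. The neuronal Fgf14 rose by 1.53, the neurotrophin receptor Ntrk2 by 1.30, its ligand Bdnf by 0.46 and Vegfa by 0.95. Hox genes gave 1 higher, Hoxd8 at 0.59, and 5 lower of 36 (13.9%, against 10.4% over all probe sets). Among the lower were Hoxa10 at -1.17, the cofactor Meis1 at -1.01, Hoxb9 at -0.64 and Hoxa5 at -0.49. Hoxa10 and Hoxb9 changed sign in the covariate fit. In the covariate fit 0 Hox genes were higher and 2 lower. Without T1, T6 or OT2, 3 Hox genes fell, and without OT6, 2. Polyamine, zinc and citrate genes, whose products the prostate secretes in quantity, gave 2 higher and 7 lower of 28 (median -0.17; 2 higher and 2 lower in the covariate fit): spermine synthase Sms at 0.87 and the zinc importer Slc39a6 at 0.79 against the metallothioneins Mt1 at -1.15 and Mt3 at -0.66 and the importers Slc39a8 at -0.91 and Slc39a7 at -0.59. Without OT3 or OT6, 4 or 3 of them fell. Fgfr2 (-0.48), Igf1 (-0.54), Bdnf (0.12), Hoxd8 (0.75), Meis1 (-0.20), Hoxa5 (-0.26) and Mt1 (-0.79) were not called once the covariate was held. Mt3 (-0.37), Slc39a8 (-0.42) and Slc39a7 (-0.84) were not called in the covariate fit.

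The hybridisation control covariate did not weigh on all genes alike. Of the 218 called genes named, 102 were also called in the covariate fit in the same direction. Another 101 lost their call and 15 turned to the other sign. Over all probe sets a smaller share of the calls was kept, 986 or 20.6%, all in the same direction. Many of the named genes were picked for large differences, so their count does not stand for all calls. Slc25a21 and Plac8 changed little in size, and the secretory genes Wfdc15b, Tgm4 and Pbsn moved towards 0.

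**Figure D5:**
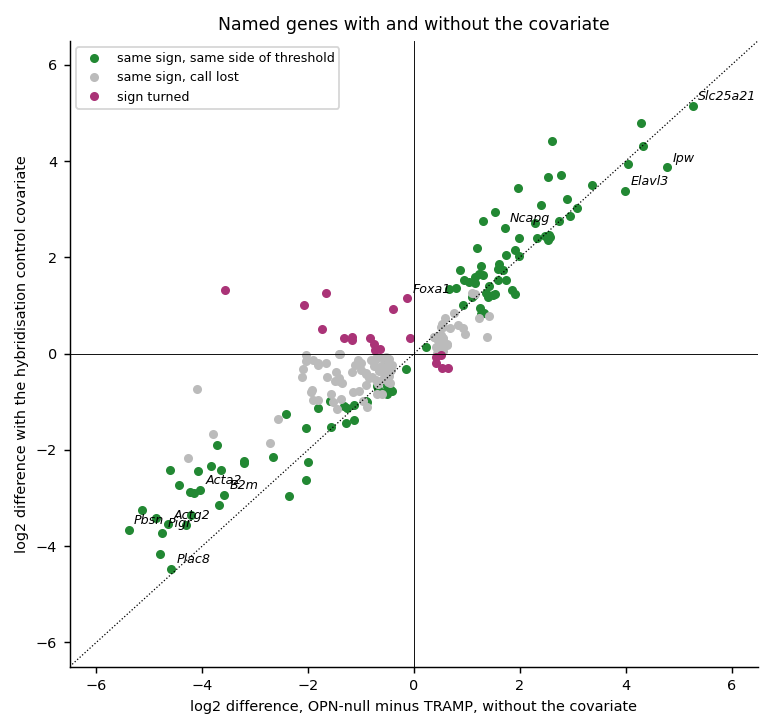
Difference between late OPN-null TRAMP and late TRAMP (log2) of the named genes without (horizontal axis) and with (vertical axis) the hybridisation controls as a covariate. Slc25a21 moves from 5.27 to 5.15 and Plac8 from -4.59 to -4.47, while Pbsn moves from -5.39 to -3.66 and Wfdc15b from -4.10 to -0.74.

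The OPN-null difference was then set against the same difference at the early age and against the late SPARC-null tumours. Both comparisons use the late OPN-null arrays, so they are not independent of the differences above, and their values are given side by side only. The late minus early OPN-null effect was called for 3539 probe sets (15.9%), 1926 higher (8.67%) and 1613 lower (7.26%). All of the 20 largest rises and all of the 20 largest falls were among them. Slc25a21 had a late minus early difference of 5.22 (adjusted p = 6.52e-14), Pbsn of -6.35 (adjusted p = 3.46e-07), Pigr of -5.74 (adjusted p = 8.32e-08), Tspan1 of -5.38 (adjusted p = 9.11e-11), Svs5 of -7.95 (adjusted p = 0.0232) and Pate14, another secreted male-tract protein gene, of -5.24 (adjusted p = 0.0473). In lists, mitosis gave 26 higher and 0 lower of 45, synaptic vesicle genes 15 and 0 of 33, smooth muscle 0 and 17 of 38 and class I presentation 0 and 10 of 23.

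Against late SPARC-null TRAMP the OPN-null tumours differed at 6563 probe sets (29.6%), 3511 higher (15.8%) and 3052 lower (13.7%). OPN-null arrays correlated with SPARC-null arrays at 0.815 to 0.922 across probe sets, whereas late TRAMP and SPARC-null arrays correlated at 0.935 to 0.985. The difference was -6.02 (adjusted p = 8.28e-10) for Pbsn, 5.48 (adjusted p = 1.48e-18) for Slc25a21, -5.31 (adjusted p = 2.88e-10) for Pigr, 5.17 (adjusted p = 8.38e-13) for Ipw and -5.14 (adjusted p = 4.44e-14) for Tspan1. Mitosis genes gave 33 higher and 0 lower of 45, synaptic vesicle genes 21 and 2 of 33, smooth muscle 0 and 26 of 38 and class I presentation 0 and 15 of 23. By array, the mitosis list ran from -0.03 to 0.28 in the 9 SPARC-null tumours, all below the 3 OPN-null tumours.

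Age differed within the comparison, since OT2 and OT3 came from animals of 27 weeks and late TRAMP from animals of 24 or 25 weeks. With animals of 24 weeks alone, which leaves OT6 as the 1 OPN-null tumour and assumes that it varies like the other groups, 1963 probe sets were called. Mitosis gave 23 higher and 1 lower of 45, synaptic vesicle genes 12 and 0 of 33, smooth muscle 0 and 9 of 38 and class I presentation 0 and 8 of 23. OT6 alone read 9.42 for Slc25a21, 9.84 for Elavl4, 5.66 for Pbsn and 9.67 for B2m, on the same side of every late TRAMP tumour as OT2 and OT3.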

How the data were processed

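RNA from bulk prostate tissue was measured on Clariom S mouse arrays, 1 array per animal. The deposited table holds RMA log2 values made by the authors with oligo, per the submitters' processing notes, with 29129 probe sets, of which 6923 are controls and 22206 were tested. No version is stated in those notes. The signal of each array is limited by the level of the negative controls (median 5.37 over 5222), and the comparison by the number of arrays. Gene symbols came from the platform annotation, updated through RefSeq: 19572 probe sets had 1 symbol, 2634 none and 0 several. Probe sets without a symbol stayed in every test.

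The log2 values as the authors deposited them were fitted without further normalisation in limma 3.58.1 (R 4.3.3), with 1 mean per group over the 38 transgenic arrays, moderated variances and Benjamini-Hochberg adjustment over all 22206 probe sets. Late OPN-null TRAMP (n = 3) was compared with late TRAMP (n = 7), and the same fit gave the late minus early OPN-null effect and the contrast with late SPARC-null TRAMP. Single measures of an array were compared by exact permutation over 120 splits. The p-values measure the spread between arrays with separate animal codes.

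Named genes were the 20 largest called rises and falls, up to 4 called members of each pathway list in each direction with its founding members, up to 2 of each marker list, the genes most like Slc25a21 and the 5 largest of the other contrasts. Outside the lists, only probe sets with a gene symbol were ranked. Predicted, clone-based and pseudogene names and olfactory and vomeronasal receptors were left out of those rankings. The groups, gene lists and members were chosen with earlier results of these data known, so their counts are not independent support. Alternatives were array weights, age, array quality, filters, other normalisation, a replicate block and leaving out each array. The covariate of hybridisation controls and the fit at 24 weeks were added after the data were seen. Promoter windows are RefSeq's (GRCm38.p6, 32851 windows of 27025 genes). The array of 1 early sample with conflicting labels was used in no comparison.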

Additional observations from a re-analysis of the deposited data

Results flagged for a closer look

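Within late TRAMP single tumours stood apart from the other 6 for 15 of the 96 groups of values tested. The threshold flags about 1 in 20 where groups are independent and normal. Here the same 7 tumours were tested each time, mostly on genes picked from these data that move together. The count therefore cannot show an excess over chance. T5 was the high tumour for genes that rose without osteopontin: Slc25a21 at 5.76 (next 3.98), Syt1 at 9.06 (7.38), Necab1 at 8.06 (7.37), Onecut1 at 7.46 (7.13), Pcdh8 at 6.43 (6.0) and Hey1 at 5.95 (5.75). It was the low tumour for Smim22 at 10.45 (11.02), which fell without osteopontin. T4 was the low tumour for the secretory genes Pbsn at 7.04 (10.24) and Tgm4 at 8.86 (11.78). T3 was the high tumour for Lgi1 at 5.95 (4.61), Pam at 9.82 (8.55), Hadh at 8.95 (8.22) and Timp2 at 8.97 (8.56). T2 was high for Itgav at 9.32 (9.01), and T1 low for Cdk6 at 6.06 (6.57).

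The OPN-null difference itself differed between late and early tumours at 3539 probe sets in limma's test of that difference. Among genes whose symbol was not a predicted or clone-based name, the 5 with the largest sizes were all lower late than early. They were Svs5 at -7.95, Pbsn at -6.35, Pigr at -5.74, Tspan1 at -5.38 and Pate14 at -5.24. Svs5 varied widely within late TRAMP, as did the other seminal vesicle markers.

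The SV40 probe sets, which the manufacturer lists among the controls, averaged 7.89 in late OPN-null TRAMP, above the highest of the 29 arrays without the transgene at 5.52. The part of the transgene they match is not known here.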

How the results depend on the processing

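The count of 4777 probe sets ranged from 3262 to 5331 under array weights, the groups compared alone, the quality covariate, leaving out arrays of low quality, the dim filter, other priors, repeated quantile normalisation and the replicate block, and from 3530 to 4752 when 1 array was left out. It moved to 2986 with age as a covariate, and to 2239 with the hybridisation controls (20.6% of the 4777 calls shared) and 1963 at 24 weeks (34.3% shared), both added after the data were seen. The late minus early count moved to 2235 with age and 914 with the hybridisation controls (2683 to 4197 without 1 array), and the count against SPARC-null to 1677 with the hybridisation controls (4449 to 6829 without 1 array). The SV40 difference was 0.39 with the median of its probe sets and 0.36 to 0.88 without 1 array (exact permutation p 0.0238 to 0.167). Of the 218 called genes named, the hybridisation controls kept 102, lost 101 and reversed 15, and the fit at 24 weeks lost 82. The reversed values were Cd4 -0.30, Fzd6 0.34, Hoxa10 0.29, Hoxb9 0.0929, Ibsp -0.30, Pipox -0.0272, Sec11c 1.01, Slc25a28 0.33, Slc25a3 1.26, Slc25a36 0.52, Src -0.0664, Upk1a 0.32, Wif1 0.0745, Wnt7a -0.20 and Xbp1 0.21, and of genes not called without it Foxa1 1.15 (then called), Foxa2 0.33, Hoxb13 0.92 and Pate14 1.32. Foxa1 also turned to 0.0256 with weights, 0.19 with age, 0.17 with the quality covariate, and 0.15 without arrays of low quality, without OT3 and at 24 weeks. Foxa2 turned to 0.0553 with weights, 0.0713 with age, 0.14 without arrays of low quality or OT3 and 0.37 at 24 weeks. Hoxb13 turned to 0.0021 without arrays of low quality or OT3, and Rest to 0.0583 without OT6. Without 1 array the lowest values were -0.2708 for Foxa1, -0.2886 for Foxa2, -0.6123 for Hoxb13 and -0.2522 for Rest. The cause of these moves was not tested. Deviations from the group mean correlated at -0.069, -0.284 and 0.075 between arrays with the same number, and at -0.188 to 0.267 between arrays with unlike numbers. With 3 such pairs these values cannot tell whether the numbers pair samples, and the labels do not say. A fit with the number as a replicate block gave 5331 calls, with 3418 late minus early and 5855 against SPARC-null. Of the 92 list counts, 34 that stood at under 4 calls moved by over 1.5 times without 1 array, and the larger counts that did are given beside their lists. Signal over background limits genes near the negative controls, whose differences are not exact sizes.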
